A study of Mus musculus with 20 samples.

Results

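Collagen VI and the fibril-associated collagens are matrix proteins that link the large collagen fibrils to cells and to basement membranes. The genes described here are 6, out of 21887 protein-coding genes that RefSeq places on a chromosome. They are Col6a1, Col6a2 and Col6a3, which encode the main chains of collagen VI, and Col12a1, Col14a1 and Col16a1, which encode fibril-associated collagens. They were chosen by name, with earlier results of these data known. Their positions in mm10 coordinates came from the RefSeq gene table of the assembly GRCm38.p6. For each gene the description covers histone mark peaks over the gene and within 1 kb of its ends, H3K27ac peaks within 100 kb and HEB sites within 100 kb.

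The study profiled Comma-Dβ cells, a mouse mammary epithelial line, at passage 28 by chromatin immunoprecipitation with sequencing. Its 20 samples form 5 groups of 4 replicates, for HEB, H3K27ac, H3K4me3, H3K27me3 and input chromatin, all from cells with no treatment named. The medium contained EGF at 5 ng/mL, insulin at 0.125 IU/mL, HEPES at 10 mM and 2% FBS, a serum. HEB is an E protein, a basic helix-loop-helix transcription factor. Each antibody has 1 deposited peak list for its 4 replicates, so no value below has a replicate error, no difference could be tested, and the read depth is unknown.

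In background terms, the chains of collagen VI assemble inside the cell, are secreted and form beaded microfilaments around cells, often beside basement membranes. Fibril-associated collagens have triple helices broken by flexible stretches and sit on the surface of collagen fibrils. In the mammary gland such matrix is laid down largely by stromal fibroblasts, and cultured epithelial lines can make part of it. H3K4me3 marks promoters, H3K27ac marks active promoters and enhancers, and H3K27me3 is the Polycomb mark of silenced genes. E proteins bind short sequences called E-boxes.

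The 6 genes differed in their marks. Col16a1 and Col6a1 had wide H3K27ac peaks and H3K4me3 at the gene start, with HEB sites in the same H3K27ac peak. Neither had H3K27me3 within 1 kb of the gene. Col6a2 had H3K4me3 and a narrow H3K27ac peak at its start and H3K27me3 at the opposite end. Col6a3 had no mark within 1 kb of either end, although it had H3K27ac inside the gene and HEB sites on either side. Col12a1 had both active marks and no HEB site, and Col14a1 had H3K27me3 together with weak H3K4me3 at one end and no HEB site.

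**Figure D1:**
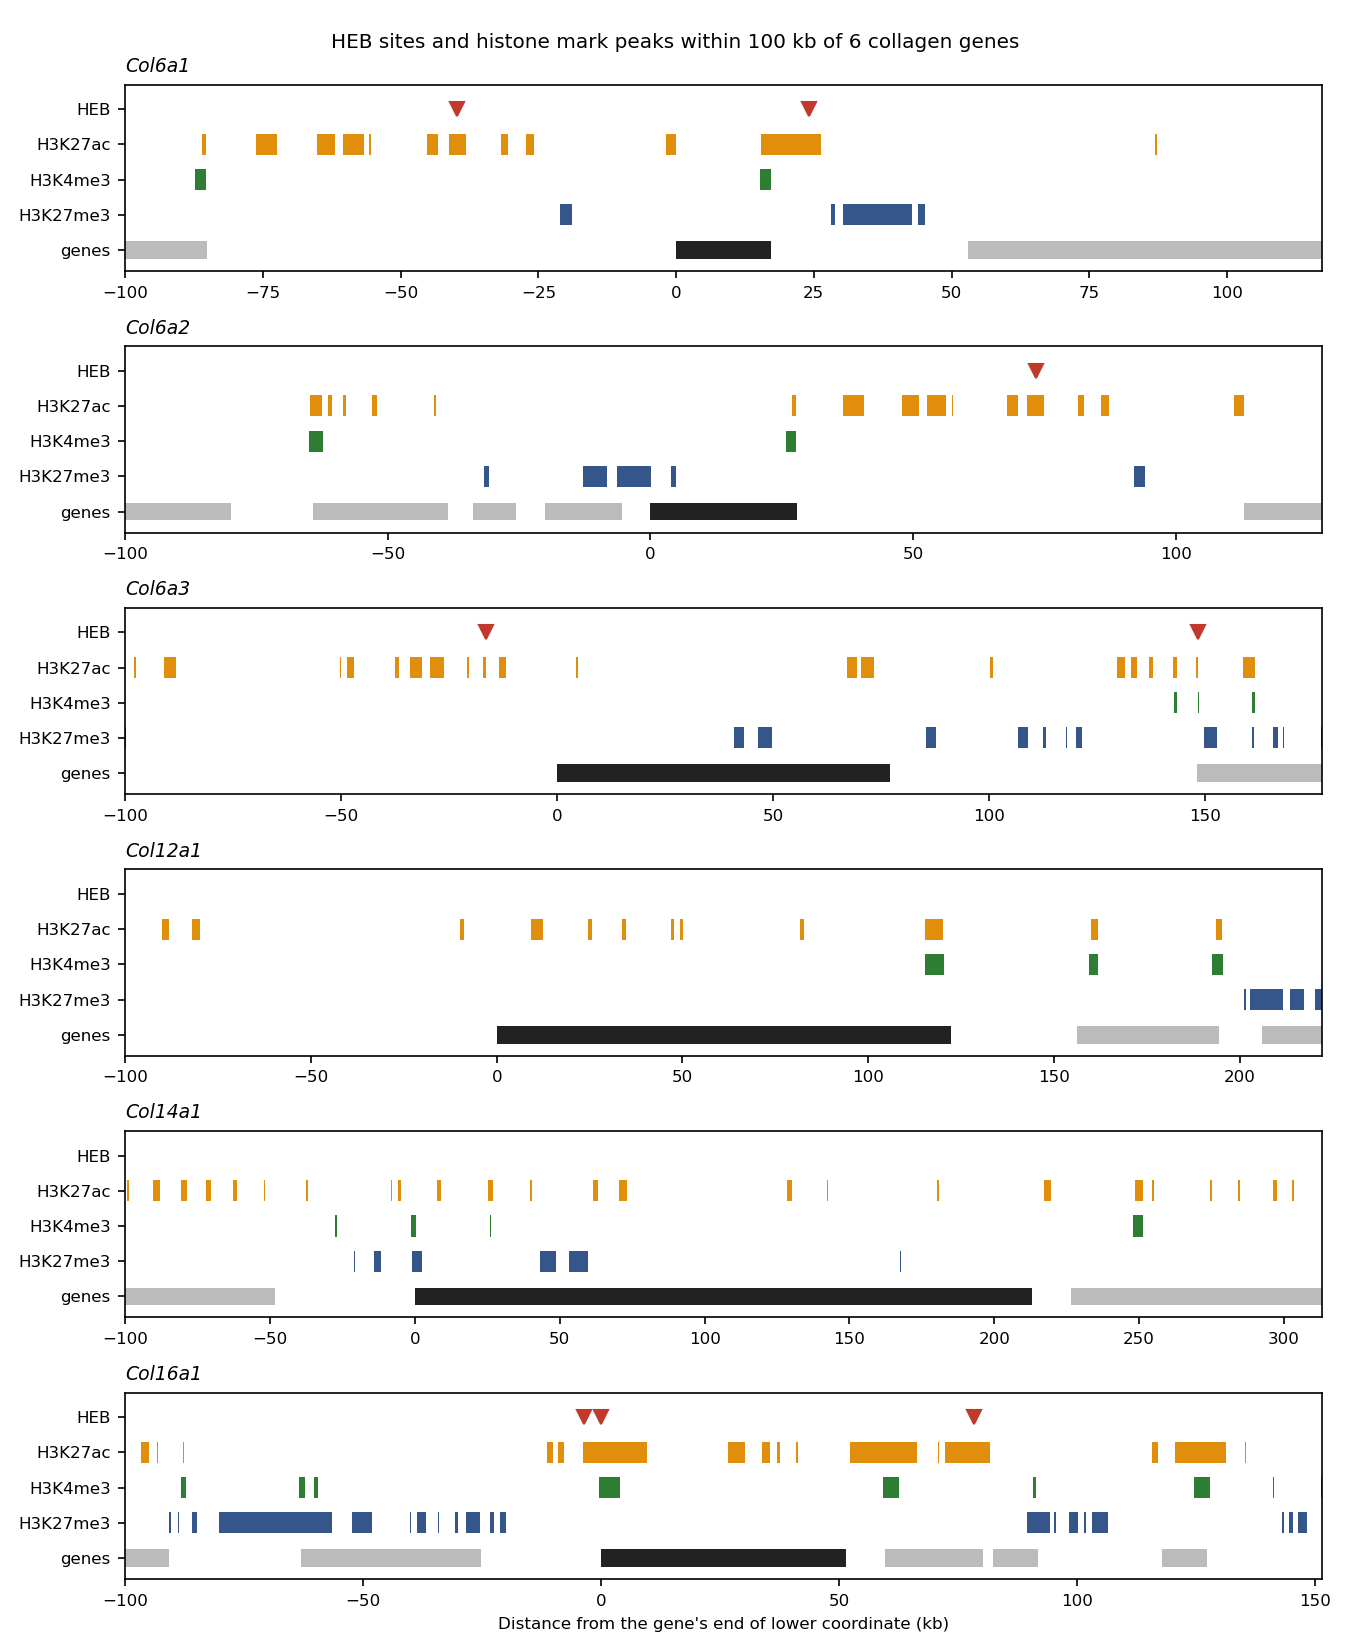
Peaks of the 3 histone marks (bars) and HEB sites (triangles) within 100 kb of each collagen gene, plotted against the distance in kb from the gene's end of lower coordinate. The black bar is the collagen gene and grey bars are other protein-coding genes. HEB sites stand near 4 of the 6 genes, 3 of them at Col16a1 and none at Col12a1 and Col14a1.

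The promoter sequences are shown because an HEB site covered one of them in full, the 300 bases from 250 before to 50 after the start of Col16a1. The RefSeq promoter table of GRCm38.p6 held windows for 4 of the 6 genes, namely Col6a1, Col6a2, Col6a3 and Col16a1, and Col12a1 and Col14a1 are named only. Each window runs 5′ to 3′ on the strand of its gene, and capitals mark E-boxes of the form CANNTG. Col6a2 has 2 listed starts, and the window of the one under its H3K4me3 peak is printed.
Col16a1 (chr4:130047590-130047889, plus strand): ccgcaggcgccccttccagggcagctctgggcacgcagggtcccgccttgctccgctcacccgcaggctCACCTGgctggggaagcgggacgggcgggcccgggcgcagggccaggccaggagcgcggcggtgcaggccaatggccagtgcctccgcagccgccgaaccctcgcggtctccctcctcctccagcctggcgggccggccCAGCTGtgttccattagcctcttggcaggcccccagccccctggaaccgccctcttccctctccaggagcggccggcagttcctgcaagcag
Col6a1 (chr10:76725995-76726294, minus strand): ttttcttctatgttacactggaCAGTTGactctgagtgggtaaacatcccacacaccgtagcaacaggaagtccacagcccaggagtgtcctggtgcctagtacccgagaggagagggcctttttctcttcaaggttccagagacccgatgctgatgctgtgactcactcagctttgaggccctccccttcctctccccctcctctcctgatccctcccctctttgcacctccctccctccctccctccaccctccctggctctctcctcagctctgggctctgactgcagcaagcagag
Col6a2 (chr10:76623355-76623654, minus strand): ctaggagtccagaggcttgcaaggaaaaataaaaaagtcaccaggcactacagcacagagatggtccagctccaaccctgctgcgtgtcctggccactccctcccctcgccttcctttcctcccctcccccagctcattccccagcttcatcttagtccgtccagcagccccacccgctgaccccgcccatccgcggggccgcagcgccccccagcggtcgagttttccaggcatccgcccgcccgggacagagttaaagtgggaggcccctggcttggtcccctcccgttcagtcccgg
Col6a3 (chr1:90843922-90844221, minus strand): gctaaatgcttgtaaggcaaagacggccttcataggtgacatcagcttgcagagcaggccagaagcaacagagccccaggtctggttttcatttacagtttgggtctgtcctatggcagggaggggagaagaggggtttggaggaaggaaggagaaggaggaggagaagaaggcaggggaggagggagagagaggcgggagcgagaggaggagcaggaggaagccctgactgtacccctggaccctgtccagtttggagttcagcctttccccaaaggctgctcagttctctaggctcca

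The Col16a1 window held 2 E-boxes, a CACCTG that began 181 bases before the gene start and a CAGCTG that began 42 bases before it. They lay 182 and 43 bases from the middle of the HEB site. The Col6a1 window held 1 E-box, a CAGTTG that began 228 bases before the start, and no HEB site overlapped it. The windows of Col6a2, at either start, and of Col6a3 held no CANNTG. Matches are a description of letters and not of bound sites, and a window without a match says nothing about the factor.

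E-boxes of this general form are frequent. Of 21238 promoter windows of protein-coding genes, 69.0% held at least 1 CANNTG, which covers both strands and includes the next 2 motifs. CAGCTG was found in 15.6% of the windows, and CAGGTG or its reverse complement CACCTG in 19.7%. Of the 41 windows that an HEB site overlapped, 78.0% held CANNTG, 31.7% CAGCTG and 26.8% CAGGTG or CACCTG.

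The windows also differed in CpG content, which was 24 CpG dinucleotides in Col16a1, 16 in the printed Col6a2 window, 6 at the other Col6a2 start, 3 in Col6a1 and 3 in Col6a3. All windows had a median of 13, those under H3K4me3 a median of 22 and the others a median of 3. The Col6a1 window thus had as few CpGs as that of Col6a3, which no mark reached. H3K4me3 covered the start of Col6a1 but only 19.0% of its window, and CpGs under the peak itself were not counted.

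Collagen VI genes are described first. Col6a1, which encodes the alpha 1 chain, spans 17.3 kb on chromosome 10 (76708792 to 76726044) and was the shortest gene. An H3K27ac peak of 10.9 kb (76724243 to 76735124) covered its start and ran on upstream, with a fold enrichment of 5.06 and a −log10 q of 29.0. Fold enrichment is the authors' ratio for a peak over its background, and −log10 q is their significance for it. Within the H3K27ac list 89.4% of peaks had a lower fold and 99.1% were narrower. The H3K4me3 peak at the start was 1.97 kb wide at a fold of 14.2, the highest H3K4me3 fold of the 6 genes. A weaker H3K27ac peak (fold 2.01) lay 0.047 kb beyond the opposite end, and no H3K27me3 peak lay within 1 kb of the gene. The nearest H3K27me3 peak was 10.85 kb upstream of the start.

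HEB had 2 sites within 100 kb of Col6a1. The nearer one (chr10:76732780-76733204) lay 6.74 kb upstream of the start and inside the same 10.9 kb H3K27ac peak that covered the start. The other (chr10:76668949-76669239) lay 39.6 kb beyond the far end of the gene, in the interval that separates Col6a1 from Col6a2. Both sites were without H3K4me3 and H3K27me3.

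Col6a2, the gene of the alpha 2 chain, lies 85.2 kb from Col6a1 and reads on the same strand (chromosome 10, 76595756 to 76623630, 27.9 kb). An H3K27ac peak of 0.667 kb with a fold of 2.89 and an H3K4me3 peak of 1.98 kb with a fold of 8.30 lay at its start. H3K4me3 covered the inner of its 2 listed starts and stopped 0.14 kb short of the outer one. H3K27ac ended 0.022 kb short of the inner start. At the opposite end, an H3K27me3 peak of 6.41 kb with a fold of 2.10 reached over from the neighbouring gene Ftcd into Col6a2 by 0.043 kb. A second H3K27me3 peak (0.845 kb, fold 1.68) lay inside the gene.

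The interval of 85.2 kb between Col6a2 and Col6a1 held 9 H3K27ac peaks. They covered 20.9 kb or 24.5% of it, against 4.41% for the whole list over the length of each chromosome up to its last H3K27ac peak. Their folds ran from 1.88 to 3.52, and 5 of the 9 had a −log10 q of 5 or more, against 45.0% of the whole list. The interval held no H3K4me3 peak, 1 H3K27me3 peak and 1 HEB site. This site lay 39.6 kb from Col6a1 and 45.3 kb from Col6a2, within 100 kb of both genes, and was the only one counted for Col6a2. The site upstream of Col6a1 was 109.1 kb from Col6a2, just beyond the limit.

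Col6a3, the gene of the alpha 3 chain, spans 77.1 kb on chromosome 1 (90766860 to 90844001). It was the member without any H3K4me3 peak over the gene. No mark lay within 1 kb of either end, and the nearest H3K4me3 peak was 65.7 kb from its listed start. H3K27ac was found inside the gene, with its strongest peak (90837307 to 90840161, 2.86 kb, fold 5.21) 3.81 kb downstream of the start and a weaker one beside it (2.40 kb, fold 3.26). Near the other end a narrow H3K27ac peak had a fold of 2.11. Between them lay 2 H3K27me3 peaks with folds of 2.00 and 1.81, which covered 5.57 kb and overlapped no H3K27ac.

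HEB sites flanked Col6a3. A site 16.2 kb beyond the far end (chr1:90750083-90750614) lay in an H3K27ac peak of 0.686 kb and fold 2.62, with 54.9% of the site inside the peak. A site 71.1 kb upstream (chr1:90915133-90915482) lay just inside Mlph, the melanophilin gene, 0.109 kb from its end of lower coordinate. It overlapped an H3K27ac peak of fold 3.24 and a weak H3K4me3 peak (fold 1.94, −log10 q 1.77), and 17 of its bases were in the promoter window of Mlph. Among the sites counted it lay the farthest from its collagen gene.

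Among the fibril-associated genes, Col16a1, whose product is found beside thin fibrils and near basement membranes, spans 51.5 kb on chromosome 4 (130047817 to 130099277). An H3K27ac peak of 13.4 kb (130044059 to 130057482) covered its start with a fold of 5.92 and a −log10 q of 41.9. Of the list's peaks, 93.4% had a lower fold and 99.5% were narrower. H3K4me3 at the start was 4.34 kb wide at a fold of 7.93, so it was wider than 95.4% of H3K4me3 peaks while 38.9% of them had a lower fold. All 4.34 kb lay inside the H3K27ac peak.

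Col16a1 had 3 HEB sites within 100 kb, the most of the 6 genes. The site of 555 bp at the gene start (chr4:130047567-130048121) covered the whole promoter window printed above and lay fully inside both active marks. A wider site of 739 bp (chr4:130043863-130044601) lay 3.22 kb upstream at the edge of the same H3K27ac peak, which held 73.5% of it. The site of 604 bp on the other side (chr4:130125861-130126464), 26.6 kb beyond the gene, lay inside Pef1, 1.67 kb from an end of that gene, in an H3K27ac peak of 9.56 kb and fold 3.15. The surroundings of Col16a1 also held wide H3K27ac peaks of 14.0 kb (fold 4.84), which overlapped Pef1 and began 0.85 kb beyond Col16a1, and of 10.7 kb (fold 6.72) at Tinagl1. Both were without HEB.

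Col12a1, whose product coats collagen fibrils in dense tissue, spans 122.2 kb on chromosome 9 (79598987 to 79721141). Its H3K4me3 peak of 5.01 kb (79714272 to 79719282) had a fold of 9.72 and was wider than 97.5% of the list. An H3K27ac peak of 4.98 kb and fold 2.80 shared 4.93 kb with it. The H3K4me3 and H3K27ac peaks stopped 1.86 and 1.94 kb inside the gene's end of higher coordinate, just outside the 1 kb window, so Col12a1 was not counted as marked at a gene end. A further 6 H3K27ac peaks of folds 1.80 to 2.89 lay inside the gene. No H3K27me3 peak lay within 1 kb of it, and the nearest HEB site was 1773 kb away.

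Col14a1, the gene of undulin, a related fibril-coating collagen, spans 213.2 kb on chromosome 15 (55307644 to 55520803) and was the longest. At its end of lower coordinate an H3K27me3 peak of 3.45 kb (55306580 to 55310033) had a fold of 3.48 and a −log10 q of 23.0. Of the H3K27me3 list, 99.7% of peaks had a lower fold. A weak H3K4me3 peak (1.73 kb, fold 2.86, −log10 q 10.1) shared 1.49 kb with it inside the window of the gene, and no H3K27ac peak lay within 1 kb of that end. Inside the gene were 8 H3K27ac peaks, of which the strongest (fold 3.17) lay on a narrow H3K4me3 peak (fold 2.33). A further 3 H3K27me3 peaks inside the gene had folds of 1.58 to 2.05. None of the H3K27me3 peaks overlapped H3K27ac, and the nearest HEB site was 402 kb away.

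**Figure D2:**
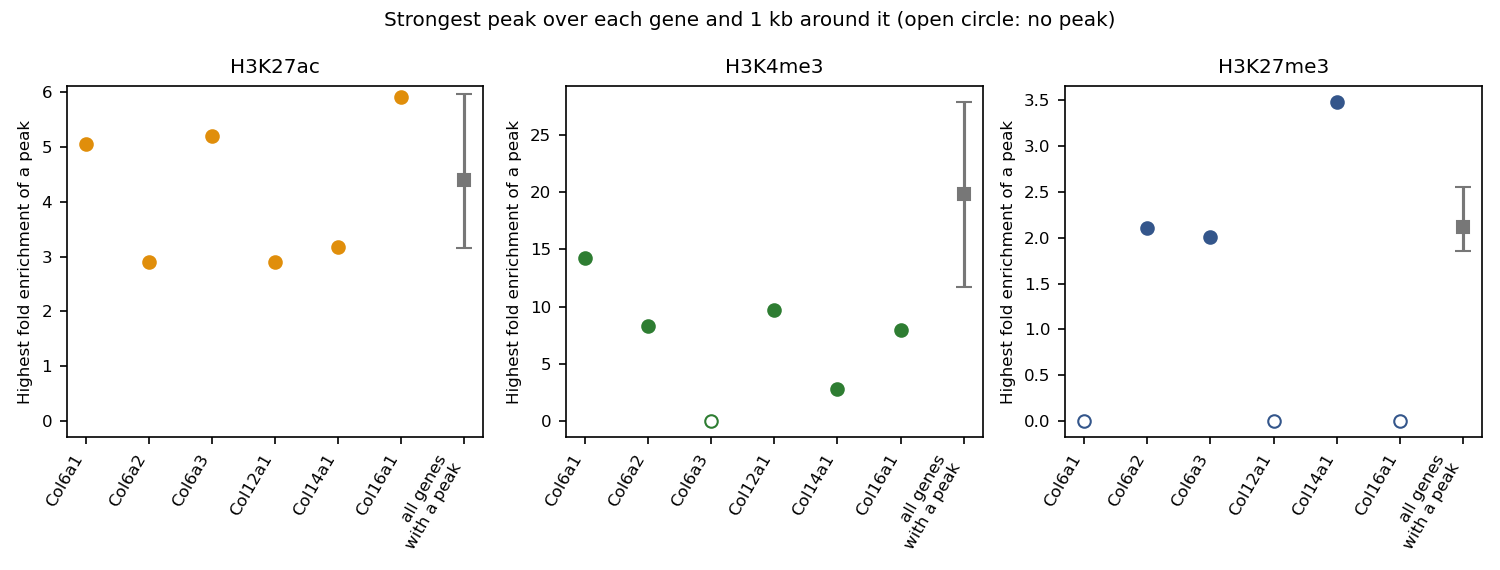
Highest fold enrichment of a peak of each mark over each collagen gene and 1 kb around it (circles, open where there is no peak), beside the median and interquartile range over all protein-coding genes with such a peak (grey square and bar). Every collagen gene with an H3K4me3 peak lies below the median of 19.9, and Col14a1 lies above the range for H3K27me3.

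Counted over the group, H3K4me3 lay within 1 kb of a gene end at 4 of the 6 genes (all but Col6a3 and Col12a1), against 55.8% of all protein-coding genes. H3K27ac lay there at 3 (Col6a1, Col6a2 and Col16a1), against 53.4%, and H3K27me3 at 2 (Col6a2 and Col14a1), against 32.3%. Over the whole gene and 1 kb around it, H3K27ac was found at 6 of 6 against 63.2%, H3K4me3 at 5 against 61.2%, and H3K27me3 at 3 against 37.5%. The counts at gene ends are near the background. The median length of the 6 genes was 64.3 kb, against 17.2 kb for all genes. The part of length in the counts over the whole gene was not tested.

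H3K27ac and H3K4me3 without H3K27me3 at the gene ends, the state of Col6a1 and Col16a1, was found at 43.3% of all protein-coding genes. H3K4me3 and H3K27me3 without H3K27ac at the gene ends, as at Col14a1, was found at 5.17%. This share takes each mark at either end, so it includes genes with the marks at opposite ends. At Col14a1 they overlapped at the same end. The highest H3K4me3 fold was between 2.86 and 14.2 in the 5 genes with a peak, against a median of 19.9 (interquartile range 11.7 to 27.9) in all genes with one. For H3K27ac the 6 genes ranged from 2.89 to 5.92, against a median of 4.41 (3.16 to 5.96). Col6a1, Col6a3 and Col16a1 stood above that median, and Col6a2, Col12a1 and Col14a1 below it.

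The share of each gene covered by peaks, which takes gene length into account, ran in another order than the folds. H3K27ac covered 32.1% of Col16a1 and 1 kb around it, 19.5% of Col6a1, 10.4% of Col12a1, 7.33% of Col6a3, 4.99% of Col14a1 and 2.23% of Col6a2. Of all protein-coding genes, 87.5% had a lower share than Col16a1, 78.4% a lower share than Col6a1 and 43.0% a lower share than Col6a2. H3K27me3 covered 7.37% of Col14a1, 7.03% of Col6a3 and 6.32% of Col6a2, against a median of 36.0% in the genes that had any. No base pair of H3K27ac was shared with H3K27me3 in any of the 6 genes.

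**Figure D3:**
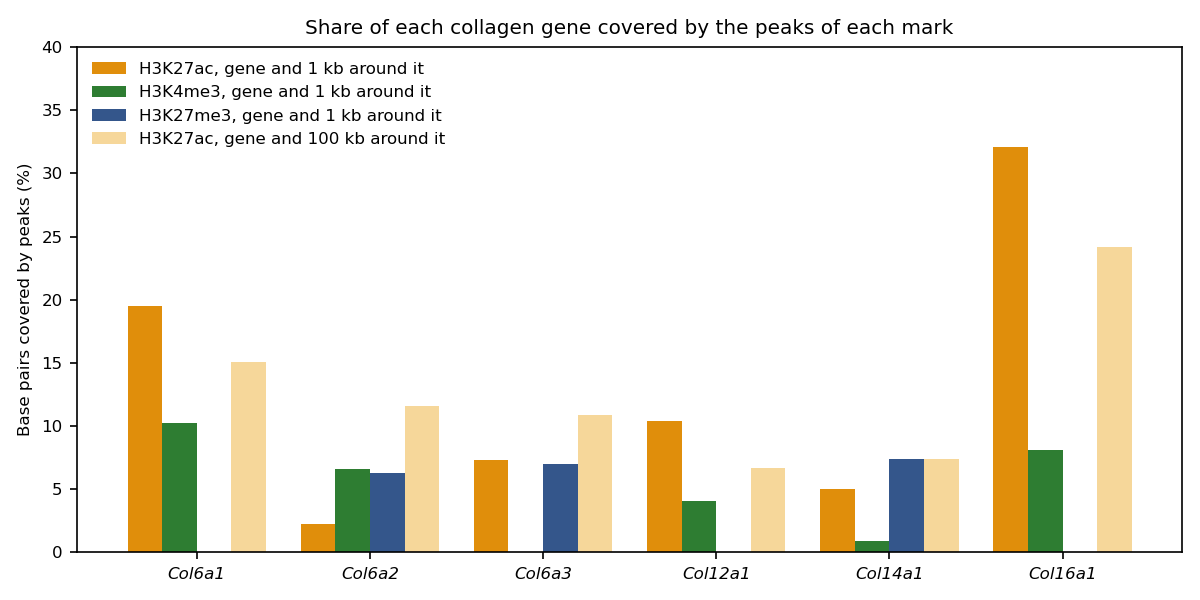
Percent of base pairs covered by peaks in each collagen gene with 1 kb around it, for the 3 marks, and for H3K27ac also with 100 kb around it. Col16a1 has the highest H3K27ac share on both scales, 32.1% and 24.2%, and H3K27me3 is present in Col6a2, Col6a3 and Col14a1 alone.

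Within 100 kb, the number of H3K27ac peaks was 24 at Col14a1, 20 at Col6a3, 16 at Col16a1, 15 at Col6a2, 12 at Col6a1 and 12 at Col12a1. All 6 genes had at least 1, as did 87.3% of all protein-coding genes, and the median was 15.5 peaks against 9. The window includes the gene itself, and the 6 genes were longer at the median than all genes. The part of length in this difference was not tested. Col14a1, the longest gene, had the most peaks, while Col12a1 at 122.2 kb had as many as Col6a1 at 17.3 kb. The peaks at Col14a1 were weak, with a median fold of 1.96 against 2.97 at Col6a1, the highest median. The share of this wider window under H3K27ac was 24.2% at Col16a1, 15.1% at Col6a1, 11.6% at Col6a2, 10.9% at Col6a3, 7.39% at Col14a1 and 6.69% at Col12a1, against a median of 5.97% in all genes. For Col16a1, 94.2% of genes had a lower share, and for Col12a1 53.3% did.

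The strongest H3K27ac peak near a member often belonged to another gene. Near Col14a1 it lay over neighbouring ends of Mrpl13 and Mtbp (fold 9.54), near Col12a1 in Cox7a2 (5.85), near Col16a1 at Tinagl1 (6.72) and near Col6a2 at Lss (4.26). At Col6a1 and Col6a3 it was the gene's own peak, with folds of 5.06 and 5.21. The windows of Col6a1 and Col6a2 shared 10 peaks, which left 89 distinct peaks. Of these 89, 71 overlapped no H3K4me3 and lay over 1 kb from any coding gene end. The share of such peaks in the whole list was not counted, so the 71 cannot be set against a background. The median fold over all 89 was 2.35, and 41 lay above the median of the whole list, 2.39.

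HEB sites lay within 100 kb of 4 of the 6 genes, against 12.0% of all protein-coding genes. All 3 collagen VI genes were among them, and of the fibril-associated genes Col16a1 was the one. The nearest site was at 0 kb for Col16a1, 6.74 kb for Col6a1, 16.2 kb for Col6a3, 45.3 kb for Col6a2, 402 kb for Col14a1 and 1773 kb for Col12a1, against a median of 839 kb over all genes. Of all genes, 2.55% had a nearer site than Col6a1 and 68.3% a nearer site than Col12a1. At least 3 sites within 100 kb, as at Col16a1, were found at 0.580% of genes. Among 44 collagen genes, 15 had a site within 100 kb, and Col16a1 shared its count of 3 with Col5a1, Col4a1 and Col18a1.

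**Figure D4:**
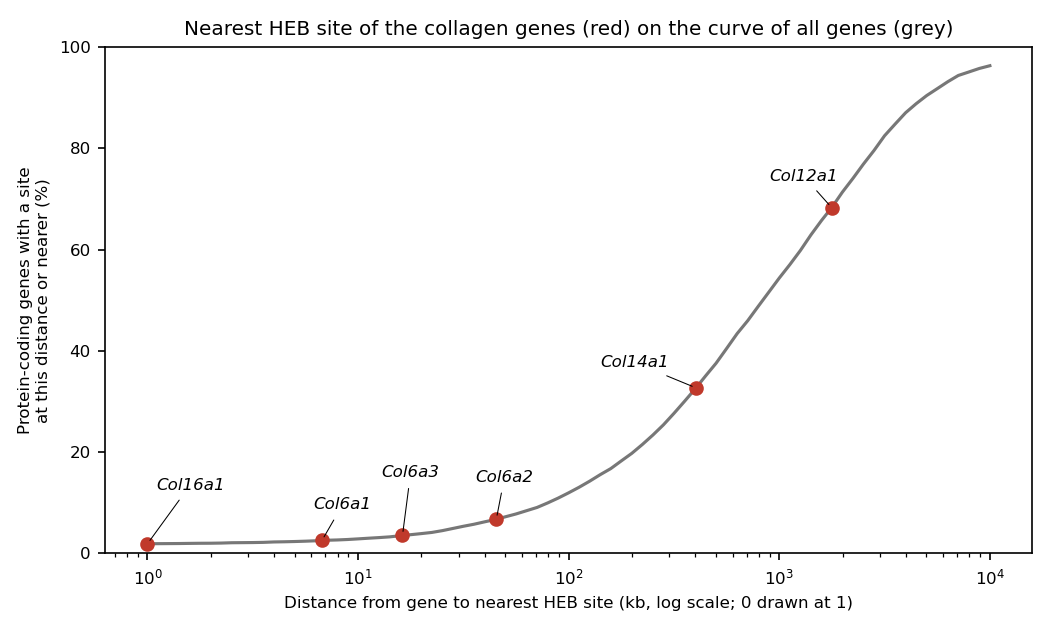
Share of protein-coding genes with an HEB site at a given distance or nearer (grey curve, distance in kb on a log scale, with 0 drawn at 1), with the 6 collagen genes placed on the curve (red). Col16a1, Col6a1, Col6a3 and Col6a2 sit at the low end, at 45.3 kb or less, while Col14a1 at 402 kb and Col12a1 at 1773 kb lie farther up the curve.

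The 7 distinct HEB sites all overlapped an H3K27ac peak, against 85.3% of the 956 HEB sites. H3K4me3 was present at 2 of the 7, those at the start of Col16a1 and in Mlph, against 23.4%. H3K27me3 was present at none of the 7, and its share over all HEB sites was not counted. The sites were 291 to 739 bp wide, around the list's median of 438 bp. By nearest gene end, 5 of the 7 belonged to a collagen gene, 2 each to Col6a1 and Col16a1 and 1 to Col6a3, and the others to Mlph and Pef1. Col6a2 was the nearest gene of none.

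The 7 sites lay in 6 H3K27ac peaks, since Col16a1 had 2 in its start peak. These were 6 of the 89 distinct H3K27ac peaks near the collagen genes (6.74%), against 1.27% of the whole list. Peaks with HEB had folds from 2.62 to 5.92 with a median of 3.20, and the 83 others a median of 2.25. Widths differed as well, with medians of 6.32 kb in peaks with HEB and 1.20 kb in the others, so fold and width move together with HEB here. Their part in the number of sites was not tested. HEB was also found in narrow peaks, those of 0.686 and 0.607 kb near Col6a3. Of the 89 peaks, 5 were 9 kb wide or more, a width that 1.59% of the list reached, and of these 4 lay near Col16a1 and 3 held HEB.

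**Figure D5:**
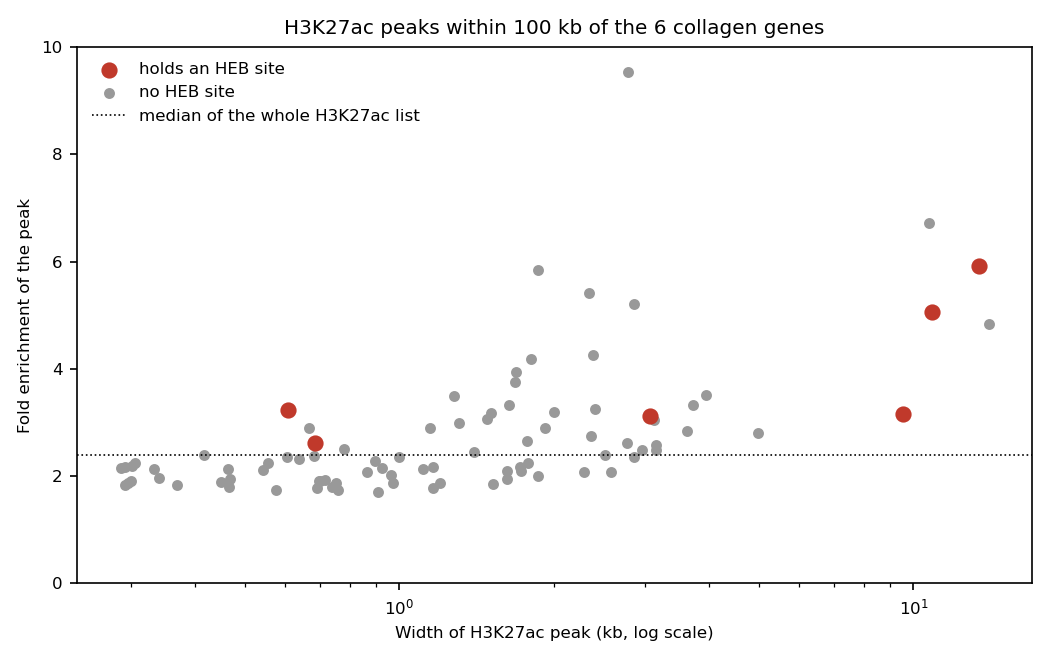
Fold enrichment against width (kb, log scale) of the 89 H3K27ac peaks within 100 kb of the 6 collagen genes, with the 6 that hold an HEB site in red and the median of the whole list as a dotted line. All 6 lie above the dotted line at 2.39, 3 of them are among the widest peaks, and 16 peaks without HEB have a higher fold than the median of the 6.

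The profile of each gene was compared with 43 other collagen genes over 5 measures from 1 cell type. These were the highest folds of H3K27ac and H3K4me3, the covered shares of H3K27ac and H3K27me3 and the number of HEB sites, each as a percentile among protein-coding genes. The mean difference in percentile points is the measure of likeness. Col6a1 was nearest to Col16a1 (5.55 points) and Col5a2 (5.77). Col16a1 was nearest to the fibrillar collagen genes Col3a1 (5.06) and Col1a2 (5.48).

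The other members had different neighbours. Col6a2 was nearest to Col8a2 (6.72) and Col25a1 (9.22), and Col6a3 to Col28a1 (6.50) and Col25a1 (12.1). Col12a1 was nearest to Col11a1 (5.76) and Col7a1 (8.16), and Col14a1 to Col24a1 (4.51) and Col4a4 (4.92). Among the 6 genes the pairs differed by 5.55 points (Col6a1 and Col16a1) to 33.8 points (Col14a1 and Col16a1). The collagen VI genes Col6a1 and Col6a2 differed by 23.0 points, although they are neighbours on the chromosome.

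The remaining genes of the same families are set against all protein-coding genes. Of those, 32.3% had H3K27me3 at a gene end, 53.4% H3K27ac and 55.8% H3K4me3, and 12.0% had an HEB site within 100 kb. The other collagen VI chain genes Col6a4, Col6a5 and Col6a6 had H3K27me3 at a gene end in 3 of 3, with folds of 2.56, 2.21 and 2.21, and none had H3K27ac, H3K4me3 or an HEB site within 100 kb. Of 6 other fibril-associated collagen genes (Col9a1, Col9a2, Col9a3, Col19a1, Col20a1 and Col22a1), 5 had H3K27me3 there, and Col21a1 was not analysed here. The exception was Col9a3, with H3K27ac at a fold of 5.61 and no H3K27me3, and Col9a2 alone had H3K4me3, at a fold of 1.91. None of the 6 had an HEB site within 100 kb. With a share of 12.0% over all genes, a count of 0 in 3 or 6 genes is near the background.

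Genes for receptors, for collagen synthesis and for matrix partners were read in the same way. Of all protein-coding genes, 53.4% had H3K27ac at a gene end, 55.8% H3K4me3 and 32.3% H3K27me3. An HEB site lay within 100 kb of 12.0%. Of 10 receptor genes 7 had H3K27ac and 8 H3K4me3 at a gene end, and 4 had H3K27me3. The highest H3K27ac folds were at Itgb1, the integrin beta 1 gene (9.05), Antxr2, an anthrax toxin receptor gene whose product takes up collagen VI (8.80), and Itga10 (6.02). HEB sites lay in Antxr1 and in the collagen receptor gene Ddr2, both at 0 kb, and 72.1 kb from Ddr1. Ddr1 itself had none of the marks at a gene end.

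Of 13 genes for collagen synthesis and secretion, 12 had H3K27ac and 12 had H3K4me3 at a gene end, and none had H3K27me3. The shares over all protein-coding genes were 53.4%, 55.8% and 32.3%. Plod2, a lysyl hydroxylase gene, had no mark there. The highest H3K27ac folds were at the lysyl hydroxylase genes Plod1 (8.71) and Plod3 (7.18) and at Pcolce, a gene for a procollagen proteinase enhancer (6.62). HEB sites lay in Pcolce and 6.72 kb from Serpinh1, the gene of the collagen chaperone HSP47. The median H3K27ac fold at a gene end, with 0 for genes without a peak, was 4.63 in this list, 4.25 in the receptor list, 1.45 in the 6 genes and 2.19 in all genes.

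Of 8 genes for matrix partners, 4 had H3K27ac, 4 had H3K4me3 and 4 had H3K27me3 at a gene end. Over all protein-coding genes these shares were 53.4%, 55.8% and 32.3%. The highest H3K27ac folds were at the fibronectin gene Fn1 (5.46), the fibrillin gene Fbn1 (5.09) and the tenascin gene Tnc (4.33). Fbn1 also had H3K27me3 at a gene end, at a fold of 3.04, the highest of this list. HEB sites lay 42.8 kb from Fbn1 and 71.5 kb from Bgn, the biglycan gene. Bgn had H3K27me3 alone, at a fold of 1.62.

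Marker genes were read for the cell type, at gene ends. H3K27ac and H3K4me3 peaks inside a marker gene away from its ends were not counted. Over all protein-coding genes, 53.4% had H3K27ac at a gene end, 55.8% H3K4me3 and 32.3% H3K27me3. Of 8 mammary epithelial markers, 7 had H3K27ac and H3K4me3 at a gene end, among them Krt14, Krt8 and Epcam, and Trp63 had neither. Of the 7, 3 (Krt5, Epcam and Cdh1) had H3K27me3 as well. H3K27me3 covered 88.0% of Krt5, 18.4% of Epcam and 3.76% of Cdh1, each with 1 kb around it. Of 7 stromal fibroblast markers, 3 had H3K27ac (Pdgfrb, Thy1 and Dcn) and 2 had H3K4me3 (Pdgfrb and Dcn), while Pdgfra and Thy1 had H3K27me3 and Lum, Dpt and Fap had no mark there. Immune markers had H3K27ac or H3K4me3 in 0 of 3. Endothelial markers had H3K27ac in 1 of 3 (Pecam1) and H3K27me3 in 0. Adipocyte markers had H3K27ac in 1 of 3 (Lep) and H3K4me3 in 1 (Plin1), and both of these genes also had H3K27me3. Whether the marks at the collagen genes vary between cells of the culture was not tested.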

How the data were processed

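For each antibody the authors deposited 1 peak list, so 4 lists were used. Their coordinates are in mm10. This build and SAMtools, with no version, are credited to the submitters' processing notes. The sources used here name no aligner or peak caller and do not say how replicates were joined. For HEB the deposited list holds positions only, and its name describes a replicate consensus with a minimum overlap of 2. In the 3 deposited broadPeak lists the authors give each peak a fold enrichment (a ratio) and a −log10 q-value, by the column layout of the format. The deposited score and p-value were not used. Input chromatin was not analysed here.

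Gene positions came from the RefSeq table of GRCm38.p6, and strand and start from its promoter table where a gene had an entry. Overlaps of 1 bp or more were counted with Python 3.11.15, pandas 2.3.3 and numpy 2.4.6, and were checked on simulated intervals. Distances run from the gene to the nearest edge of a peak or site. A percentile is the share of protein-coding genes, or of peaks in the list, with a lower value. In the likeness measure ties share their mean rank. The background shares count all 21887 protein-coding genes, or all sites or peaks of a list. The genes and lists were chosen with earlier results of these data known. Named were the 6 genes, their 2 nearest collagen genes, the nearest genes of their HEB sites and, in each list, the genes with an HEB site and the 3 with the highest H3K27ac fold at a gene end. Other genes, such as Ftcd, Tinagl1, Mrpl13, Mtbp, Cox7a2, Lss, Plod2 and Col9a2, and marker genes were named after their values were seen. No test was run. H3K27me3 at the immune markers is not reported here.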

Additional observations from a re-analysis of the deposited data

How the results depend on the processing

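Of 36 alternative counts, 30 stayed within 1.5 times the reported one and 6 moved further. With gene starts only, for the 4 genes whose strand was in the table, H3K27me3 lay at 0 gene starts in place of 2 gene ends, because the Col6a2 peak lies at the far end and Col14a1 has no strand there. At 10 kb, 3 HEB sites lay near 2 genes (Col6a1 and Col16a1), against 7 sites near 4 genes at 100 kb. Of all protein-coding genes, 2.86% had a site within 10 kb and 12.0% within 100 kb. H3K27ac peaks numbered 33 at 10 kb and 56 at 50 kb, and 39 with a −log10 q of 5 or more, against 89. Of the whole H3K27ac list, 45.0% of peaks reached that −log10 q. A window of 2500 bp added Col12a1 for H3K27ac (4 genes, against 57.9% of all protein-coding genes) and H3K4me3 (5 genes, against 58.5%). Asking for 50% of the window to be covered removed Col6a2 for H3K27ac (2 genes, against 41.3%) and H3K4me3 (3 genes, against 47.0%). With a −log10 q of 5 or more, Col6a3 had no H3K27me3, which left 2 genes with it over the gene, against 19.5% of all protein-coding genes. All 7 HEB sites overlapped H3K27ac peaks at that threshold too. Among genes at least as long as the shortest member, H3K27ac lay at a gene end in 61.0%, H3K4me3 in 65.7% and H3K27me3 in 32.6%, and 11.9% had an HEB site within 100 kb. No paired analysis was possible because each antibody has 1 list without replicate columns, and for the same reason no replicate could be left out. Depth is unknown, so a missing peak does not show a missing mark.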
